A study of Mus musculus with 2 samples.

Results

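The 10 genes examined encode cell-cell junction and adhesion proteins of epithelial cells: Cdh1, Epcam, Cldn3, Cldn4, Cldn7, Ocln, Tjp1, Dsp, Jup and Pkp3. Every Etv4 or Etv5 region that lay inside one of these genes or within 50 kb of it was taken, by the GENCODE annotation of the mouse genome (mm10). This gave 29 of the 13636 Etv4 regions and 15 of the 8297 Etv5 regions. The regions came from ChIP-seq, in which DNA fragments crosslinked to a protein are recovered with an antibody and sequenced. The cells were EpRas, a line derived from EpH4 mouse mammary gland epithelial cells by transformation with oncogenic H-Ras. Both libraries were made from EpRas cells kept in 4% serum and given TGF-beta3 at 1 ng/ml for 1.5 h. A rabbit polyclonal antibody recovered Etv4 in the first and a mouse monoclonal antibody recovered Etv5 in the second. Since there was 1 library per antibody and untreated cells were not analysed here, no test between antibodies or of the treatment could be made. Read counts were not used here, so the depth behind a region is unknown. RNA levels were not analysed here, so the epithelial label was not checked against expression.

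Epithelial cells are held together by adherens junctions, tight junctions and desmosomes. E-cadherin joins neighbouring cells at adherens junctions, claudins and occludin seal the space between cells at tight junctions, and desmosomes anchor the keratin network at the membrane. TGF-beta is known to induce the epithelial-mesenchymal transition, during which many of these genes are turned down. Etv4 and Etv5 are ETS family transcription factors of the PEA3 group, which act downstream of Ras and ERK and recognise DNA with a GGAA core.

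Regions of the Etv4 list were found at 9 of the 10 genes, and regions of the Etv5 list at 8. Among all 21938 protein-coding genes, 53.4% had an Etv4 region and 42.7% an Etv5 region within the same reach. Both lists had regions at 8 of the 10 genes (36.4% of all protein-coding genes), and at 6 of them a region of one list overlapped a region of the other by at least 1 bp (29.5% of all). Only Ocln had no region of either list, which was the case for 40.4% of all genes. More Etv4 than Etv5 regions were listed at 6 genes (37.5% of all), and equal numbers at the other 4, Cdh1, Ocln, Dsp and Pkp3. The whole Etv4 list is also the longer one. Over the stretches searched, the genes had 2.32 Etv4 and 1.09 Etv5 regions per 100 kb, compared with 0.992 and 0.564 over all protein-coding genes. These densities count a region once for each gene in reach (34 Etv4 and 16 Etv5 pairs of a region and a gene), so the regions shared by Cldn3 and Cldn4 enter them repeatedly.

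The number of regions differed widely between the genes, as the bar plot of regions per gene shows. Jup had the most, with 8 Etv4 and 4 Etv5 regions, and as many or more were found at 2.63 and 4.82% of all protein-coding genes. Cldn3 had 6 and 3, Cldn7 had 5 and 2, and Cldn4 had 5 and 1. Cdh1 had 3 of each. Tjp1, the longest of the genes at 232 kb, had 3 Etv4 regions and 1 Etv5 region. Epcam had 2 Etv4 regions only, and Dsp and Pkp3 had 1 region of each list. Averaged over all protein-coding genes, 1.48 Etv4 and 0.840 Etv5 regions were in reach of a gene. The stretch searched was of similar length (median 122 kb for the 10 genes and 117 kb for all), and it held a median of 2.50 starts of other protein-coding genes against 2 for all.

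**Figure D1:**
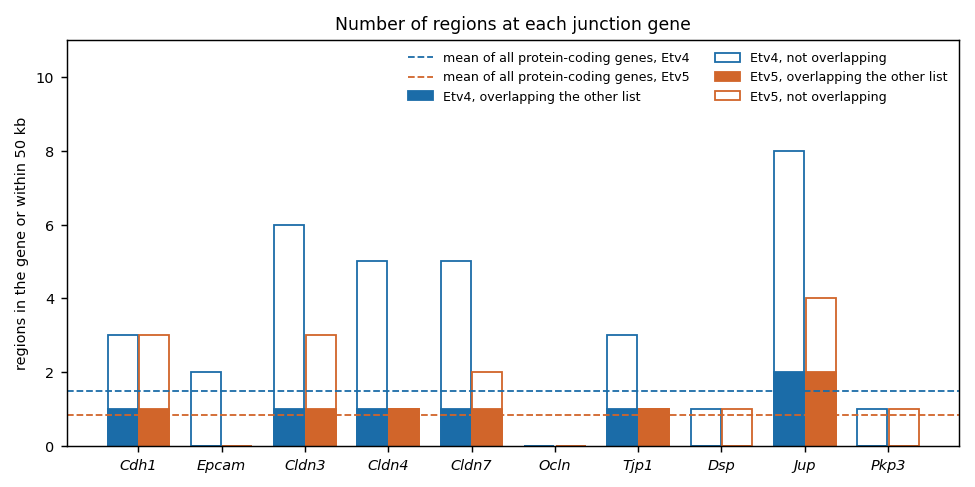
The vertical axis gives the number of Etv4 (blue) and Etv5 (orange) regions in each of the 10 genes or within 50 kb; the filled part of a bar counts regions that overlapped the other list and dashed lines give the mean over all protein-coding genes (1.48 and 0.840). Jup has the tallest bars, at 8 and 4, and Ocln has none.

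Many of these regions lay nearer to another gene. The junction gene was the protein-coding gene with the nearest start for 19 of the 29 Etv4 regions and 8 of the 15 Etv5 regions. Midpoints within 2 kb of a transcription start numbered 14 for Etv4 (48.3%, exact binomial 95% interval 29.4 to 67.5%, compared with 36.5% of the whole list) and 8 for Etv5 (53.3%, interval 26.6 to 78.7%, compared with 33.1%). Intervals cover counting error only. Of these, 6 Etv4 and 3 Etv5 regions were near a start of a junction gene, and the other 8 and 5 were near starts of neighbours such as Eif1, Eif5a, Gabarap, Stx1a, Snrnp48 and Acadvl. Beyond 2 kb of a start, introns held 8 Etv4 and 6 Etv5 regions (29.7 and 30.8% of the lists). Exons held 2 and 0 (2.60 and 2.06% of the lists), and intergenic sequence 5 and 1 (31.2 and 34.0%). The maps of the 10 genes show the distance of each region from the gene start.

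**Figure D2:**
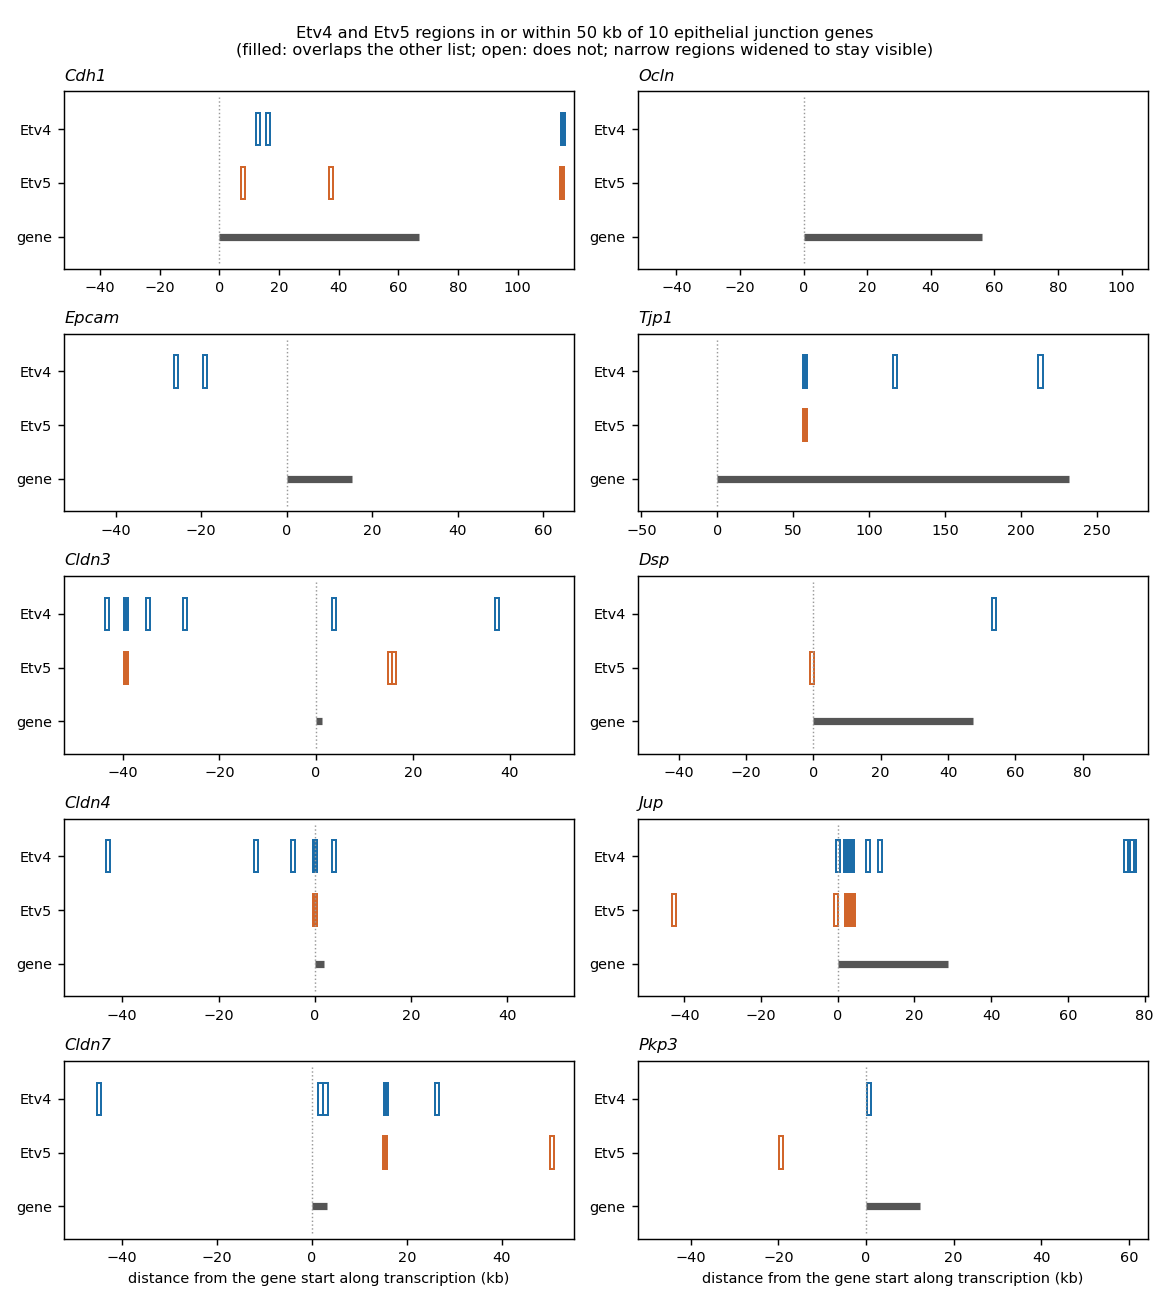
Position of each region along the 10 genes, in kb from the gene start in the direction of transcription, with Etv4 regions in blue, Etv5 regions in orange and the gene as a grey bar. Filled boxes overlap the other list and open boxes do not; boxes are drawn at a minimum width. Cldn4 is the gene with both lists over its start, and the Ocln panel is empty.

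Cdh1 encodes E-cadherin, the adhesion molecule of adherens junctions (chromosome 8, plus strand, 106603351 to 106670246). The regions inside the gene were all in its intron 2, counted in the principal transcript of 16 exons, and none was shared between the lists. In order from the gene start, they were an Etv5 region at 8.01 kb, Etv4 regions at 12.80 and 16.40 kb, and an Etv5 region at 37.52 kb. The closest approach of the lists inside the gene was 4395 bp. The start of Cdh1 itself had no region of either list, with 7757 bases between it and the nearest one. The only overlapping pair in reach, with 302 bp in common, lay 47.9 kb beyond the end of Cdh1 in an intron of Tango6, whose start was the nearest.

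Recognition sequences of either strand were sought within 500 bp centred on each midpoint, a window that runs past the ends of the shorter regions. The ETS pattern was CAGGAAGT or CCGGAAGT, the AP-1 pattern TGACTCA or TGAGTCA (which are each other's reverse complement), the RUNX pattern TGTGGTT or TGTGGTC, and the E-box CAGGTG, a sequence bound by Snail and Zeb repressors. At Cdh1 the second intronic Etv4 region held an ETS and an AP-1 match with 27 bases between them, and an E-box. The first held 2 AP-1 matches and 2 E-boxes, and the Tango6 pair held a RUNX match with 2 AP-1 matches in the Etv4 and 3 in the Etv5 window. The intronic Etv5 region at 8.01 kb held an AP-1 match and the one at 37.52 kb none of these patterns. The stretches shown are those with the ETS match or with several matches close together, on the plus strand of GRCm38 (the assembly that mm10 names), with matches in capitals.
Cdh1 intron 2, Etv4 region, chr8:106619789-106619870 (AP-1, then ETS as its reverse complement): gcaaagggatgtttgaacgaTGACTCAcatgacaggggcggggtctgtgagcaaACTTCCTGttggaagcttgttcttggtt
Cdh1 intron 2, Etv4 region, chr8:106616125-106616223 (AP-1, E-box, AP-1, E-box): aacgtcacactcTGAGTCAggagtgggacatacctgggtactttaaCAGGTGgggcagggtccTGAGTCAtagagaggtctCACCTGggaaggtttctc
Tango6 intron downstream of Cdh1, Etv5 region of the shared pair, chr8:106718195-106718430 (AP-1, RUNX, AP-1): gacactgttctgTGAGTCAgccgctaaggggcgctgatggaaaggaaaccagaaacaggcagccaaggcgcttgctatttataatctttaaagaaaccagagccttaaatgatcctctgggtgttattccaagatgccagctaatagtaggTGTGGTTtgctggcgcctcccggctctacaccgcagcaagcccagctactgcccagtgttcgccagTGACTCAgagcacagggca

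Epcam encodes the epithelial cell adhesion molecule, a membrane protein that binds claudins (chromosome 17, plus strand, 87635979 to 87651129). Both Etv4 regions were intergenic and upstream, at 25.99 and 19.22 kb from the gene start, and Epcam was the gene with the nearest start for both. The Etv5 list had no region in reach. Its nearest region lay 64.0 kb upstream of Epcam, beyond the limit of 50 kb, and overlapped an Etv4 region there. The Etv4 region at 25.99 kb, number 1769 of its list, contained an AP-1 match and an E-box, shown here as the lower numbered of the pair. The other, number 13206, held an AP-1 match and 2 RUNX matches.
Epcam upstream Etv4 region, chr17:87609825-87609902 (AP-1, then E-box as its reverse complement): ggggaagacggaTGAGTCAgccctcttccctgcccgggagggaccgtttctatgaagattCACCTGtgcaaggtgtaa

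Among the 5 tight junction genes, Cldn4 had both lists at its start. Cldn4 encodes claudin-4, a membrane protein of tight junction strands, in a single exon (chromosome 5, minus strand, 134945119 to 134946934). Its start was covered in the Etv4 list by the interval 134946520 to 134947402, and in the Etv5 list by the interval 134946610 to 134947207, which lay wholly inside the former (598 bp in common). Cldn4 was the only one of the 10 genes with a region of either list over its gene start, compared with 9.91% of all protein-coding genes for Etv4 and 4.35% for Etv5. Counting the starts of all transcripts of a gene, Etv4 regions covered a start of Cldn4, Jup and Pkp3 (12.9% of all genes), and Etv5 regions a start of Cldn4 (5.89%).

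Both intervals held AP-1 matches at -152 and -234 bp from the gene start (negative values are upstream), and 3 E-boxes, a RUNX match and no ETS match. Of these, 1 AP-1 match and 1 E-box were outside the central 500 bp of the Etv5 region. The bases upstream of the start are shown on the minus strand, since both lists and these matches meet there, with AP-1 and E-box matches in capitals. The sequence is from RefSeq (GRCm38.p6).
Cldn4 upstream sequence, chr5:134946935-134947184: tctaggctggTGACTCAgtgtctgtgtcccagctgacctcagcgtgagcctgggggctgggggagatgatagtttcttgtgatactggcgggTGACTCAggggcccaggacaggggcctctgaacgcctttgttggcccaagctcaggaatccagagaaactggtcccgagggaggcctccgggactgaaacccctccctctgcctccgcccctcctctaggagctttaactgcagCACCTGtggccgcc

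A further 3 intergenic Etv4 regions flanked Cldn4, 3.91 kb downstream of its start and 4.57 and 12.15 kb upstream, and none of the 3 overlapped an Etv5 region. Cldn3, which encodes claudin-3 in a single exon, lies nearby on the plus strand (134986214 to 134987472), so the genes share 5 Etv4 regions and 1 Etv5 region, the pair at the Cldn4 start among them. No region lay inside Cldn3. Its closest was an Etv4 region 3.70 kb downstream of the start, in an exon of Wbscr25. The Etv5 regions at 15.24 and 16.06 kb were next to the start of Abhd11, and the Etv4 region at 37.39 kb was at the start of Stx1a.

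Cldn7 encodes claudin-7 (chromosome 11, plus strand, 69964779 to 69967885). There were 2 Etv4 regions inside the gene, one in intron 2 at 1.84 kb from the start and one at its last exon at 2.89 kb, and neither overlapped the Etv5 list. The Etv5 list had no region inside Cldn7. Its overlapping pair in reach (281 bp in common) was at the starts of Elp5 and Ctdnep1, 15.55 kb from the start of Cldn7 in the Etv4 list. The remaining Etv4 regions were at the start of Eif5a, 44.67 kb upstream of the start of Cldn7, and at that of Gabarap, 26.41 kb downstream of it. None of the Cldn7 regions held an ETS match, and an AP-1 match was found only in the Etv5 region at the start of Acadvl, 50.56 kb from the start of Cldn7.

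Tjp1 encodes ZO-1, a scaffold protein that links tight junction strands to actin (chromosome 7, minus strand, 65296165 to 65527781). It carried the pair with the lowest region numbers of the set, 701 of the Etv4 list and 394 of the Etv5 list, and the pair with the largest overlap, 1001 bp. The Etv4 region spanned 65469426 to 65470448 and the Etv5 region 65469346 to 65470426. They were intronic in the long form of the gene but 98.7 and 98.6 kb upstream of the start of the principal transcript (65371239). The other 2 Etv4 regions had numbers 13192 and 13593, near the end of the list. One was 39.5 kb upstream of the principal start and the other in exon 19 of 28.

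In both lists the Tjp1 pair held the same ETS match and, 23 bases away, the same AP-1 match. This was the one overlapping pair of the set with an ETS match, 12 bp from the midpoint of the Etv4 region and 39 bp from that of the Etv5 region. The stretch around it is shown on the plus strand of GRCm38.
Tjp1 shared region, chr7:65469856-65469963 (AP-1, then ETS as its reverse complement): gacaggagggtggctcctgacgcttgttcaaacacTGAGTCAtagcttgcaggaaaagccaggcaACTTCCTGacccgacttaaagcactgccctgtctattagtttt

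Ocln encodes occludin, a membrane protein of tight junctions (chromosome 13, minus strand, 100496507 to 100552718). The nearest Etv5 region was 90.2 kb and the nearest Etv4 region 98.0 kb away, and the nearest protein-coding starts to these were those of Naip1 and Rad17.

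The desmosomal genes had 10 Etv4 and 6 Etv5 regions in all, most of them at Jup. Jup encodes plakoglobin, an armadillo protein of desmosomes and adherens junctions (chromosome 11, minus strand, 100368958 to 100397763). Intron 1 held 5 Etv4 regions, at 0.18, 2.11, 3.80, 7.79 and 11.04 kb from the start, and 2 Etv5 regions, at 2.45 and 3.86 kb. Both of these overlapped Etv4 regions, by 72 and 534 bp. At 3.86 kb the Etv5 region (100393637 to 100394170) lay wholly within the Etv4 region (100393551 to 100394370).

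The start of Jup was flanked by regions of different lists. On the gene side, the Etv4 region 100397415 to 100397741 stopped 21 bases short of the start. On the upstream side, the Etv5 region 100397838 to 100398526 stopped 74 bases short of it, and 96 bases separated the regions. Their numbers were 12840 of 13636 and 1505 of 8297. The Etv4 region at 11.04 kb covered the starts of 2 non-coding Jup transcripts. The remaining 3 Etv4 regions were at Eif1, 75.16 to 77.22 kb from the start of Jup, and in 2 of these, stretches of 36 bases that also occur elsewhere in the genome made up 22.9 and 16.7% of positions. The remaining Etv5 region was at the start of Nt5c3b. Without these, Jup had 5 Etv4 and 3 Etv5 regions.

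**Figure D3:**
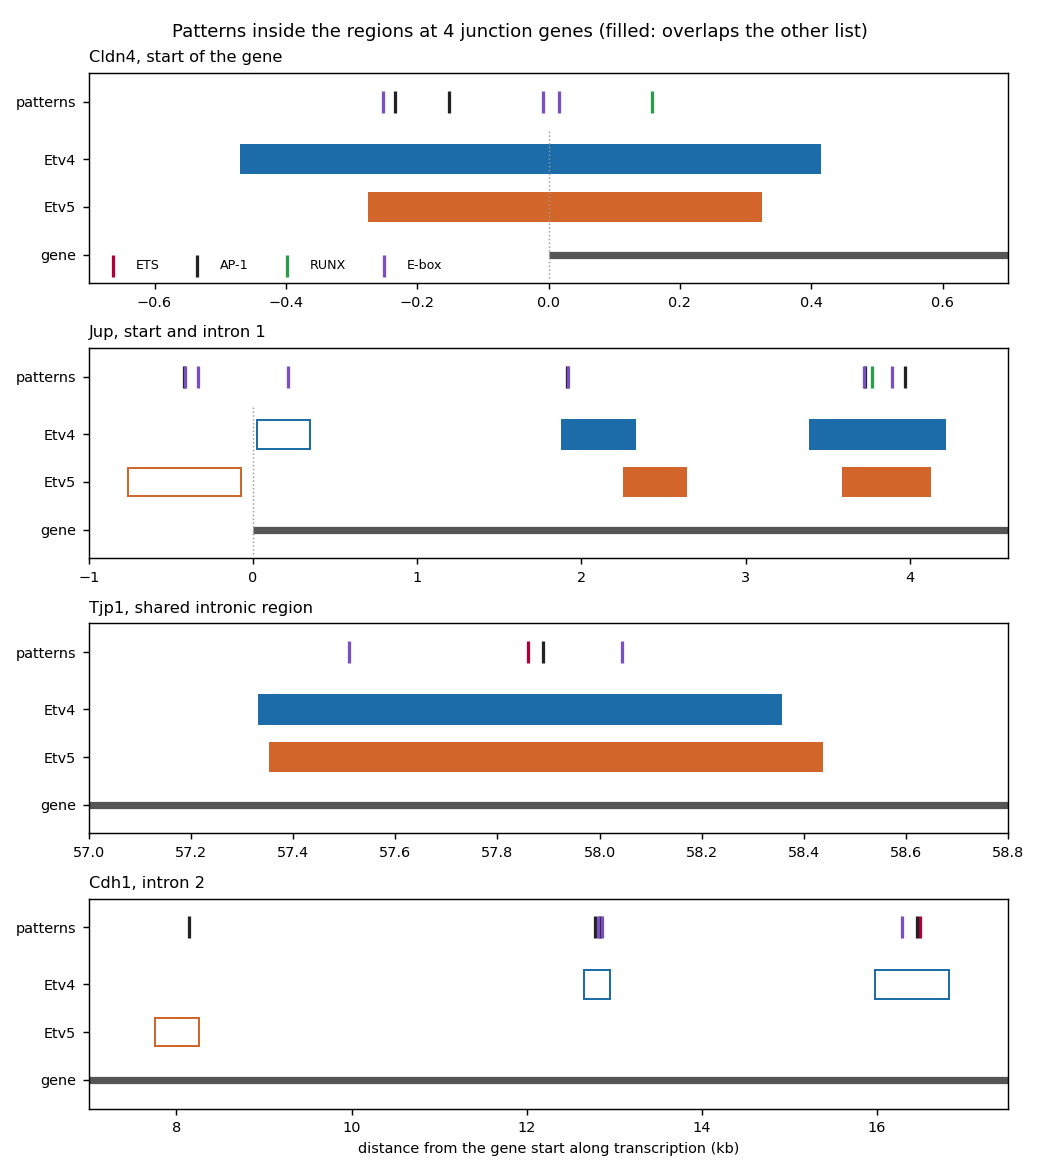
Regions and patterns at Cldn4, Jup, Tjp1 and Cdh1, with distance from the gene start in kb along transcription. Boxes are Etv4 (blue) and Etv5 (orange) regions to scale, filled where they overlap the other list, and ticks mark ETS, AP-1, RUNX and E-box matches inside regions. At Cldn4 both lists cover the start, at Jup the lists lie on either side of it, at Tjp1 the ETS and AP-1 matches are 23 bases apart, and in the part of Cdh1 drawn, which leaves out the Etv5 region at 37.52 kb and the overlapping pair beyond the gene, no box is filled.

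The larger Jup pair held 2 AP-1 matches, 2 E-boxes and a RUNX match, all in the part common to both lists. In the Etv5 region upstream of the start, an AP-1 match and an E-box overlapped by 2 bases at the midpoint. Both stretches are shown on the plus strand of GRCm38, as examples of patterns in a shared and in an unshared Jup region.
Jup intron 1, shared pair, chr11:100393782-100394061 (AP-1, E-box, RUNX, AP-1, E-box): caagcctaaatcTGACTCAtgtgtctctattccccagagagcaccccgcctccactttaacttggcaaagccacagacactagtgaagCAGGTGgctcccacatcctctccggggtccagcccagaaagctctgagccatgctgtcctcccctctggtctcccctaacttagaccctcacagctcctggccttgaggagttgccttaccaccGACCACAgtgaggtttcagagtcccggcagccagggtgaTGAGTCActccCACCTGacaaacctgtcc
Jup upstream Etv5 region, chr11:100398087-100398201 (E-box, then E-box overlapping AP-1): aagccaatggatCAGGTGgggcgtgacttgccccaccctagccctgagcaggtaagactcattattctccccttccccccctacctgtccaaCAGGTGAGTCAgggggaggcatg

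Dsp encodes desmoplakin, which ties desmosomes to keratin filaments (chromosome 13, plus strand, 38151294 to 38198577). Its one Etv5 region, from 38150440 to 38151237, ended 56 bases before the gene start, and no Etv4 region was within 2 kb. The midpoint of this Etv5 region lay inside another annotated gene, Gm10129. The one Etv4 region in reach of Dsp was at the start of Snrnp48, 53.77 kb from the start of Dsp. The Etv5 region was number 2123 of its list, ahead of 5 of the 6 Etv5 regions that overlapped the Etv4 list. It contained no ETS, AP-1, RUNX or E-box match in its central 500 bp. The bases before the start, of which most lie inside this region, are shown from RefSeq (GRCm38.p6), with nothing in capitals because neither ETS nor AP-1 matched.
Dsp upstream sequence, chr13:38151044-38151293: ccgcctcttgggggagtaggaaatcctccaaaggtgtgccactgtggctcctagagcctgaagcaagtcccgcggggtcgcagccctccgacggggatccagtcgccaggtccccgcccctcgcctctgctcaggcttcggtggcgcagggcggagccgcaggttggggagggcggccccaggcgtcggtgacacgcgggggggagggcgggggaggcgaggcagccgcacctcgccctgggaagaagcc

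Pkp3 encodes plakophilin-3, an armadillo protein of the desmosomal plaque (chromosome 7, plus strand, 141078218 to 141090510). The Etv4 region from 141078834 to 141079148 lay 0.77 kb inside the gene and covered the start of one of its coding transcripts, and it held 2 AP-1 matches and an E-box. The Etv5 region was 19.45 kb upstream, closest to the start of B4galnt4, and held 3 AP-1 matches. The regions did not overlap.

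Counting each gene start with a midpoint within 2 kb, Etv4 regions were at 4 of the 10 genes (Cldn4, Cldn7, Jup and Pkp3), compared with 15.4% of all protein-coding genes. Etv5 regions were at 3 (Cldn4, Dsp and Jup), compared with 8.73%. Cldn4 and Jup had both (5.07% of all). Inside the gene body, Etv4 regions were found at 6 genes (23.0% of all) and Etv5 regions at 4 (14.7%).

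Across the set, 6 of the 29 Etv4 regions overlapped the other list (20.7%, interval 7.99 to 39.7%). For Etv5 it was 6 of 15 (40.0%, interval 16.3 to 67.7%). The shares over the whole lists, 37.8 and 63.2%, were inside these wide intervals. Each region carries a number whose criterion is not stated, and the longer regions had the lower numbers (Spearman's rho between number and length over each whole list was -0.90 for Etv4 and -0.87 for Etv5). The Etv4 regions of the junction genes had late numbers, with a median at 69.4% of the list and 9 of 29 in the last 10%. For Etv5 the median was at 55.1%, with 1 of 15 in the last 10%. Median lengths were 545 and 459 bp, against 589 and 532 bp in the lists, and median GC contents 55.6 and 51.6%, against 49.6 and 48.8%.

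Within the Etv4 regions, those that overlapped the Etv5 list had lower numbers (median at 33.7% of the list, range 5.14 to 71.8%) and a median length of 724 bp. Those that did not overlap had a median at 75.5% (range 13.0 to 99.7%) and a median length of 364 bp, and the ranges overlapped widely. In the first 50% of the Etv4 list by number, 5 of 12 regions at junction genes overlapped the other list, compared with 54.7% of all regions there. In the second 50% this was 1 of 17, compared with 20.8%. For Etv5 the counts were 3 of 7 against 80.1% and 3 of 8 against 46.2%.

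**Figure D4:**
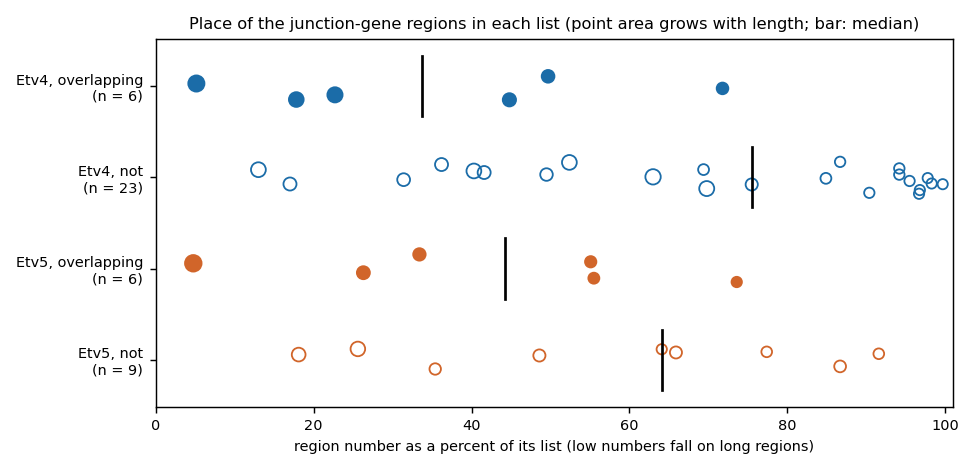
Region number of each junction-gene region as a percent of its list, for Etv4 (blue) and Etv5 (orange) regions that did (filled) or did not (open) overlap the other list. Point area grows with region length and black bars are medians (33.7, 75.5, 44.3 and 64.1% from top to bottom); overlapping Etv4 regions end at 71.8% and open ones reach 99.7%.

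The ETS pattern was found in 2 Etv4 regions, at Cdh1 and Tjp1, and in 1 Etv5 region, at Tjp1. Over the whole lists 10.2% of Etv4 and 7.94% of Etv5 regions held it. All these matches were CAGGAAGT. CCGGAAGT alone was in none (3.45 and 2.17% of the lists). The shorter pattern of A or C, then GGAA, then A or G was in 24 Etv4 and 13 Etv5 regions (81.5 and 79.1% of the lists). AP-1 matches were present in 12 of the 29 Etv4 regions (41.4%, interval 23.5 to 61.1%) and 8 of the 15 Etv5 regions (53.3%, interval 26.6 to 78.7%), compared with 37.4 and 35.8% of the lists. Among the 6 overlapping pairs, 5 of the Etv4 and 4 of the Etv5 regions held AP-1. It was lacking in both regions of the pair at Elp5 and in the Etv5 region of the smaller Jup pair. Among regions that did not overlap, 7 of 23 Etv4 and 4 of 9 Etv5 regions held it. The AP-1 shares of the whole lists were not split this way, and the regions of a pair have bases in common. Whether AP-1 goes with overlap was not tested. Neither ETS nor AP-1 was present in 17 Etv4 and 7 Etv5 regions (56.0 and 59.2% of the lists).

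RUNX matches were in 4 regions of each list (24.7 and 23.9% of the lists). E-boxes were in 12 Etv4 regions and 6 Etv5 regions (30.2 and 29.0% of the lists). In the 300 bases around the starts, from RefSeq, 10 promoters of 8 of these genes were found, and Cdh1 and Pkp3 were not matched. E-boxes were in 7 of the 10 (Cldn3, Cldn4, Cldn7, Dsp, Epcam and Ocln), compared with 20.2% of all 32851 promoters. AP-1 was in that of Cldn4 only (5.20% of all) and ETS in one of Cldn7 only (7.07%), which no region covered. RUNX was in none (9.27%). Neither the regions nor these promoters held the Grainyhead pattern AACCGGTT, which was present in 0.220% of Etv4 regions, 0.289% of Etv5 regions and 0.146% of promoters.

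A wider list of 35 other genes for adherens, tight and gap junctions and desmosomes was counted in the same way. Etv4 regions were in reach of 27 of them (53.4% of all protein-coding genes) and Etv5 regions of 21 (42.7%). Overlapping regions were in reach of 15 (29.5%), and 6 had no region (40.4%). Pkp1, which encodes plakophilin-1, had the most regions, 14 Etv4 and 10 Etv5, and a midpoint of the Etv4 list 0.07 kb from its start. The start of Tnnt2 was the nearest protein-coding start for 9 of the 14 and for 5 of the 10. F11r, which encodes the junctional adhesion molecule A, had 7 Etv4 regions and 1 Etv5 region. The start of Alyref2 was the nearest for 6 of the 7. Ctnna1 and Ppl had 3 Etv5 regions each. The nearest start was that of Lrrtm2 for all 3 at Ctnna1, and that of Ppl itself for 2 of the 3 at Ppl. At F11r, overlapping regions lay within 2 kb of the gene start, as at Cldn4 among the 10 genes.

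The limit of 50 kb left some regions just inside and others just outside. The last ones inside were the Eif1 region 48.1 kb from Jup and the Tango6 pair 47.9 and 47.8 kb from Cdh1. The first ones outside were an Etv4 region 50.5 kb from Cldn7, closest to the start of Gps2, and Etv5 regions 54.3 and 55.1 kb from Cldn4. These Etv5 regions, with Abhd11 as the nearest protein-coding start, were counted at Cldn3.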

How the data were processed

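Per the labels, reads were mapped to mm10 with Bowtie. The study's methods name bowtie2 for the accessibility libraries and refer to these for ChIP-seq, and its release is not given in the sources used here. Regions were called by the authors for each library on its own, with CisGenome in its single-sample setting. The window was 300 bp and the p threshold 0.1. No control library entered the calling, so it does not remove local copy number or open chromatin. The score column that was deposited holds 1000 throughout and was left unused. Ends may be inclusive, so a length can be off by 1 bp.

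Genes were whole records of GENCODE M21, sequence was GRCm38, and positions count from 1. A principal transcript was the one of lowest APPRIS class, then the longest. The set of genes, the wider list, the patterns and the windows were chosen with earlier results of these data known. All 10 genes were named with every region. From the wider list, genes with the 3 highest counts per list, ties included, or an overlapping region near the start were named, except 1 that is not reported here. Backgrounds were all protein-coding genes or all regions, and no test was made. Functions were tested on simulated data. The tools were Python 3.11.15, scipy 1.17.1 for exact Clopper-Pearson intervals, pandas 2.3.3, numba 0.67.0 for counting 36-base sequences, numpy 2.4.6 and matplotlib 3.10.9.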

Additional observations from a re-analysis of the deposited data

How the results depend on the processing

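No paired analysis was possible because the lists come from 1 library per antibody, which leaves nothing to test. Alternatives were fixed with earlier results known, and the principal transcript in place of the whole gene was added after seeing the data. A setting counted as unmoved within 1.5 times a count or within the interval of a share. The cause was not tested where the setting does not give it by construction.

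At the 10 genes, Etv4 and Etv5 regions numbered 18 and 8 within 10 kb, 51 and 25 within 100 kb, 14 and 6 in the gene itself, 19 and 8 where the gene had the nearest start, and 12 and 7 in the first 50% by number. The first 8297 Etv4 regions by number gave 13. Genes with an Etv5 region numbered 5 within 10 kb, 4 in the gene itself (14.7% of all protein-coding genes) and 5 by nearest start. The shares of all genes within 10 kb and by nearest start were not counted, so these counts have no background. The share of Etv4 regions near a start was 69.0% within 5 kb. ETS regions numbered 0 and 0 with CCGGAAGT and 24 and 13 with the loose pattern. AP-1 regions numbered 7 and 5 in 200 bp. The other 53 values stayed within these limits, which are wide for shares: the overlapping share of Etv4 regions was 10.3% with an overlap of 50% of both regions and 38.5% with equal numbers by region number, against 20.7%, and that of Etv5 regions was 3 of 15 with an overlap of 50% of both and 4 of 6 (66.7%) in the gene itself, against 6 of 15 (40.0%). With principal transcripts, Etv4 and Etv5 regions were 28 and 14, since the Tjp1 pair was out of reach, and Tjp1 then had no Etv5 region. None of the regions was mostly multicopy.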
